A study of Mus musculus with 16 samples.

Results

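Mouse embryonic stem cells without the transcriptional repressor REST were compared with control cells on the third day of embryoid body formation. All arrays labelled day 3 entered the comparison, 4 of the 16 in the series: 2 of REST -/- (knockout) bodies and 2 of REST +/+ (control) bodies. Both genotypes had been grown feeder-free in serum medium with leukemia inhibitory factor, a cytokine that preserves the stem cell state, and were then aggregated in hanging drops without that factor and moved to suspension culture. Strain, parent line and the way in which Rest was deleted were not stated. With 1 knockout and 1 control genotype, differences between the cell lines cannot be told apart from those due to the lost gene. The other 12 arrays held the same genotypes undifferentiated (day 0) or as bodies of days 6 and 9, and the title of the series places its question in cardiac lineage specification. Arrays of a group carry numbers but are not said to be separate cultures, so that p-values rest on the spread between arrays, which may be technical.

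REST sits on a DNA motif close to genes of neurons and, with its cofactors, holds them silent in cells of other kinds. At gastrulation, epiblast cells pass through the primitive streak, lose epithelial contacts and become mesoderm or definitive endoderm, under Nodal, Wnt, BMP and FGF signals. Mesp1 marks the nascent mesoderm from which the heart arises, whereas Sox17 and Foxa2 mark definitive endoderm, and embryoid bodies pass through a comparable stage soon after leukemia inhibitory factor is withdrawn.

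Of 7505 genes detected in at least 1 group of the series, 5961 were detected in a day 3 group, where detected means a detection p below 0.01 on both arrays. Between 7488 and 8450 probes were detected on each day 3 array. Across genes, Pearson's r was 0.991 between the knockout arrays and 0.990 between the control arrays, against 0.965 to 0.980 between arrays of different genotype. Rest gave no check of the genotype labels. Its single probe was not detected, at intensities of 3.37 and 4.50 in knockout bodies and 17.9 and 35.7 in control bodies, and where it lies relative to the deletion was not stated. The stem cell markers Pou5f1, Nanog, Sox2, Zfp42, Utf1 and Dppa5a were detected in both genotypes, as were the primed epiblast markers Fgf5, Pou3f1, Otx2 and Dnmt3b. Of 6 streak markers, 5 were detected in knockout bodies and all 6 in control bodies. Blood markers were detected in neither genotype.

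Loss of REST went with 296 higher and 214 lower genes at day 3. These 510 genes made up 6.80% of the 7505 tested, 3.94% for the rises and 2.85% for the falls, by limma's moderated test with a Benjamini-Hochberg adjusted p below 0.05. By the fitted value, 105 rises and 91 falls were 2-fold or more, and 16 rises and 22 falls were 4-fold or more. The median log2 fold change over all genes was 0.00. Replicates differed by a median of 0.15 (knockout) and 0.16 (control) on the log2 scale, and the group means by 0.18. For all 510 called genes both knockout arrays lay on the same side of both control arrays, which held for 52.3% of all genes tested. With 2 arrays per genotype a call favours such separation, so that it describes the calls and lends them no support.

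Among the rises, 96 genes were detected on at least 1 knockout array and on no control array, and among the falls 65 were detected on no knockout array and on at least 1 control array. For these a lower bound on the fold is given, and for the 12 rises and 8 falls detected in neither group no fold is given. All log2 fold changes are knockout minus control on the log2(value + 16) scale, which understates the change of dim genes, and are given with the standard error of the fit, n = 2 arrays per genotype. Called genes stood on each autosome and on X, from 2.86% of the genes tested on chromosome 17 to 10.1% on chromosome 3.

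The number of calls depended on single arrays. It was 207 without knockout replicate 2 and again 207 without control replicate 1, against 376 without knockout replicate 1 and 450 without control replicate 2. The order of the replicates differed between the rises and the falls. Among the 214 falls, replicate 1 was above replicate 2 for 150 in knockout bodies and 174 in control bodies, and among the 296 rises for 74 in knockout bodies and 75 in control bodies. Among the 6995 genes not called it was so for 3495 in knockout bodies and 3423 in control bodies. The part of this order in the calls was not tested.

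**Figure D1:**
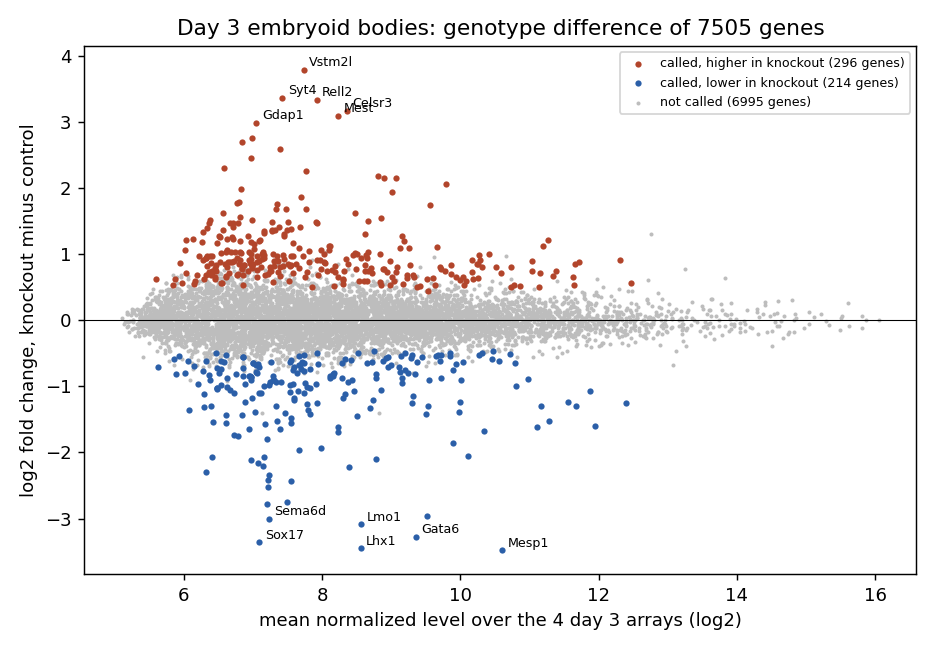
Each point is 1 of the 7505 genes tested; the horizontal axis is the mean normalized log2 level over the 4 day 3 arrays and the vertical axis is the log2 fold change, knockout minus control. The 296 rises and 214 falls are coloured, and the falls reach -3.48 at Mesp1 and the rises 3.79 at Vstm2l.

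Many genes known as REST targets were higher, and 20 of the 32 tested rose, against 3.94% of all genes tested. The list was chosen with earlier results of these data known, so that the count describes its members and is no test. Syt4, a synaptotagmin of vesicle release, read 9.05 and 9.18 (log2 level) in knockout bodies and 5.91 and 5.58 in control bodies. It was at least 4.90-fold higher (log2 fold change 3.37 ± 0.16, adjusted p = 6.03e-09). Celsr3, an atypical cadherin of axon tract formation, read 9.98 and 9.91 in knockout bodies and 6.76 and 6.79 in control bodies, a rise of 3.17 ± 0.14 (adjusted p = 4.21e-09). The replicates lay close together in both genotypes, and the groups far apart. Gdap1, a mitochondrial protein of neurons, was at least 3.30-fold higher, the granule protein Chga (chromogranin A) at least 2.93-fold, and its relative Scg3 at least 2.58-fold. Celf3, which binds RNA in neurons, was at least 2.60-fold higher, and Disp2, related to the hedgehog release factor dispatched, at least 1.89-fold.

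Of 65 listed REST targets 54 were on the array and 32 were tested, of which 20 rose and none fell, at a median log2 fold change of 1.22. With undetected genes at their bound the median was 0.55, against 0.00 over all genes. Targets detected in knockout bodies alone passed the filter through their rise, so that the count favours rises. With no detection filter, 19 of 54 rose and none fell, at a median of 0.31. Further called targets, named after their values were seen, were Syp, a synaptic vesicle protein, at 2.07 ± 0.17, the neurofilament subunit Nefm at 1.94 ± 0.15, the receptor-like protein Lrp11 at 1.75 ± 0.17 and the syntaxin Stx1a at 1.36 ± 0.12. The 12 targets not called included Stmn2, a microtubule regulator of neurites (0.55 ± 0.16, adjusted p = 0.0501). Without single day 3 arrays 17 or 18 of the 32 targets were called. Of 4 neuron markers, Tubb3, Dcx and Snap25 were not detected in either genotype, and the summed level of the remaining marker, Map2, was 193 and 180 in knockout bodies and 109 and 165 in control bodies. None of 15 REST corepressor genes was called by limma.

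The consensus REST element, known as RE1, was searched on both strands from 250 bases before to 50 after each gene's start in RefSeq promoters of the build GRCm38.p6. It has 21 positions, of which 19 are fixed letters. With at most 3 mismatches in the fixed letters, 3 of the 220 rises with a promoter held the element (1.36%), 0 of 174 falls, and 3 of 5769 genes not called (0.0520%), against 0.0731% of all 32851 promoters in the table. With at most 5 mismatches, the shares were 5.45% of the rises, 2.30% of the falls, 2.32% of the genes not called and 1.49% of all promoters. The 3 promoters are printed because they set a rise beside the element, whose letters are in capitals. They belong to Celsr3 (chr9:108825795-108826094, plus strand), the synaptic vesicle phosphoprotein gene Syn1 (chrX:20920869-20921168, minus strand) and Crip2, which encodes a LIM domain protein (chr12:113139986-113140285, plus strand).
Celsr3: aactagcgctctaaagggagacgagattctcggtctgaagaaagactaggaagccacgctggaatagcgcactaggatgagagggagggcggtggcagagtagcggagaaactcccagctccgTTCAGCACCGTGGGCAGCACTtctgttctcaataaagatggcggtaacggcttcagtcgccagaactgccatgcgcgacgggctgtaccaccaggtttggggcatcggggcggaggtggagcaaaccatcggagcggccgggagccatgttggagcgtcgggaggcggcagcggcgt
Syn1: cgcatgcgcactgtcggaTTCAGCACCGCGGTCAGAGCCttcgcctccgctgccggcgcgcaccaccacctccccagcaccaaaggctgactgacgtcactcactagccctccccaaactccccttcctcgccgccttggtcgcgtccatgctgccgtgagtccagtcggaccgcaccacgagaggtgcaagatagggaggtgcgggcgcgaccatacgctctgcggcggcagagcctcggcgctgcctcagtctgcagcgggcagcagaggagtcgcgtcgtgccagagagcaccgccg
Crip2: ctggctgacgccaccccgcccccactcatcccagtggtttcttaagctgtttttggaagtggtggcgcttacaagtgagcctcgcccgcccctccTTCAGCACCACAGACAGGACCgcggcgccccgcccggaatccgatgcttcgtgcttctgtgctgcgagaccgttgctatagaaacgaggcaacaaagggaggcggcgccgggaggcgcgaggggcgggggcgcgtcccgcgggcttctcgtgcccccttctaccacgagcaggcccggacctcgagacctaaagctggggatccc
The element began 127 bases before the start of Celsr3, 232 before that of Syn1 and 155 before that of Crip2. Syn1 read 7.86 and 7.57 in knockout bodies and 6.31 and 6.67 in control bodies (1.22 ± 0.21, adjusted p = 0.00171). Crip2 read 10.68 and 10.83 in knockout bodies and 9.52 and 10.15 in control bodies (0.92 ± 0.20, adjusted p = 0.0103). Both genes were higher on each knockout array than on each control array, and the Crip2 gap was the narrower. The match of letters is a description and does not show binding.

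Among the 15 largest rises were further genes of neurons and of other cells. Vstm2l, a neuronal immunoglobulin-domain protein, led them with 9.46 and 9.80 in knockout bodies and 5.74 and 5.94 in control bodies, at least 7.02-fold higher (adjusted p = 1.36e-08). Rell2, a RELT-like membrane protein, was at least 6.79-fold higher and Diras1, a Ras-like GTPase, at least 3.66-fold. Gprin1, which promotes neurite outgrowth, rose by 2.19 ± 0.17, and Neurod1, a proneural transcription factor, by 2.26 ± 0.23. Mest, an imprinted hydrolase of mesoderm, read 9.87 and 9.68 in knockout bodies and 6.62 and 6.74 in control bodies, a rise of 3.10 ± 0.13 with its other probes, both of them, also higher. Car4, a membrane-anchored carbonic anhydrase, rose by 2.16 ± 0.42 (adjusted p = 0.00549), but was not called without knockout replicate 2 (adjusted p = 0.0714) or without control replicate 1 (adjusted p = 0.0894).

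Regulators of primitive streak and nascent mesoderm held more falls than any other gene list used here. Mesp1 read 9.71 and 8.03 in knockout bodies and 12.55 and 12.14 in control bodies. This was the largest fall of a called gene, -3.48 ± 0.36 (adjusted p = 1.60e-05), and the knockout arrays differed from each other by more than the control arrays did. In bulk RNA, fewer cells of a type and less RNA per cell cannot be told apart. Lhx1, a homeobox regulator of anterior mesendoderm, read 7.65 and 6.00 in knockout bodies and 10.31 and 10.24 in control bodies (-3.45 ± 0.35, adjusted p = 1.50e-05). Frzb, a secreted Wnt antagonist, read 8.49 and 7.56 in knockout bodies and 11.18 and 10.80 in control bodies (-2.96 ± 0.28). Tbx6, a T-box regulator of paraxial mesoderm, read 6.17 and 6.48 in knockout bodies and 8.96 and 8.55 in control bodies, at least 3.98-fold lower. For these genes the highest knockout array stayed below the lowest control array by more than the replicates of either genotype differed.

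Mixl1, a homeobox gene of the streak, was bright in both genotypes, at 10.84 and 9.76 in knockout bodies and 12.04 and 11.78 in control bodies. It fell by 1.61 on the log2 scale (standard error 0.28, adjusted p = 0.00192), with an adjusted p of 0.110 without background correction. Throughout, that phrase means that the normexp step was left out. The deposited intensities were already background-subtracted, and their negative values were then set to 0. Mixl1 was also not called with the 4 day 3 arrays alone. Named after their values were seen, Gsc of the anterior streak and Evx1 of the posterior streak changed by -1.53 ± 0.25 and -1.29 ± 0.31, while the mesoderm receptors Aplnr and Pdgfra were at least 2.80-fold and 2.62-fold lower. Eomes, the T-box factor upstream of Mesp1, was not called, with 11.61 and 11.43 in knockout bodies and 11.83 and 11.83 in control bodies (-0.30 ± 0.16, adjusted p = 0.335). Fgf8, the streak's FGF ligand, read 11.57 and 11.24 in knockout bodies and 11.55 and 11.85 in control bodies, with overlapping groups (adjusted p = 0.345). Nodal, the inducer of the streak, read 9.41 and 9.45 in knockout bodies and 8.10 and 8.96 in control bodies, a rise of 0.90 ± 0.23 (adjusted p = 0.0254). Its control arrays lay further apart than its knockout arrays, and the rise was 0.47 without control replicate 1 (adjusted p = 0.352), and was not called without knockout replicate 1 (adjusted p = 0.0939) or 2 (adjusted p = 0.151), or without background correction (adjusted p = 0.341). Wnt8a, a Wnt ligand of the streak named after its values were seen, rose by 0.77 ± 0.13.

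The streak list was chosen with earlier results of these data known, so that its counts describe its members. Over all genes tested, 2.85% fell and 3.94% rose. Of 34 listed streak and early mesoderm genes 22 were tested, and 15 fell and 2 rose. Several of these calls are counted again in lists below: Frzb, Sp5 and Wnt8a under Wnt, Nodal under Nodal and Dll3 under Notch. The same holds for Snai1 in the epithelial to mesenchymal list, Irx3 under neural ectoderm and Cdx2 under trophoblast. Their median log2 fold change was -1.42, or -1.41 with undetected genes at their bound, against 0.00 over all genes. Genes detected in control bodies alone passed the filter through the group where they are high, and with no filter 18 of 33 fell and 2 rose at a median of -0.89. Without single day 3 arrays 10 to 14 of the 22 were called lower, 10 of them without knockout replicate 2. Without background correction 8 were called lower at a median of -1.40. Wnt3 was below the detection filter. The summed level of the 6 streak markers was 7802 and 5139 in knockout bodies, against 19323 and 16508 in control bodies. These markers were Mixl1, Eomes, Mesp1, Lhx1, Tbx6 and Evx1, of which 5 are falls already counted in the list. Nodal, Wnt8a and Fgf8 are not among them. The sum is of unlogged levels, so that bright genes weigh most, and it is no separate result.

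**Figure D2:**
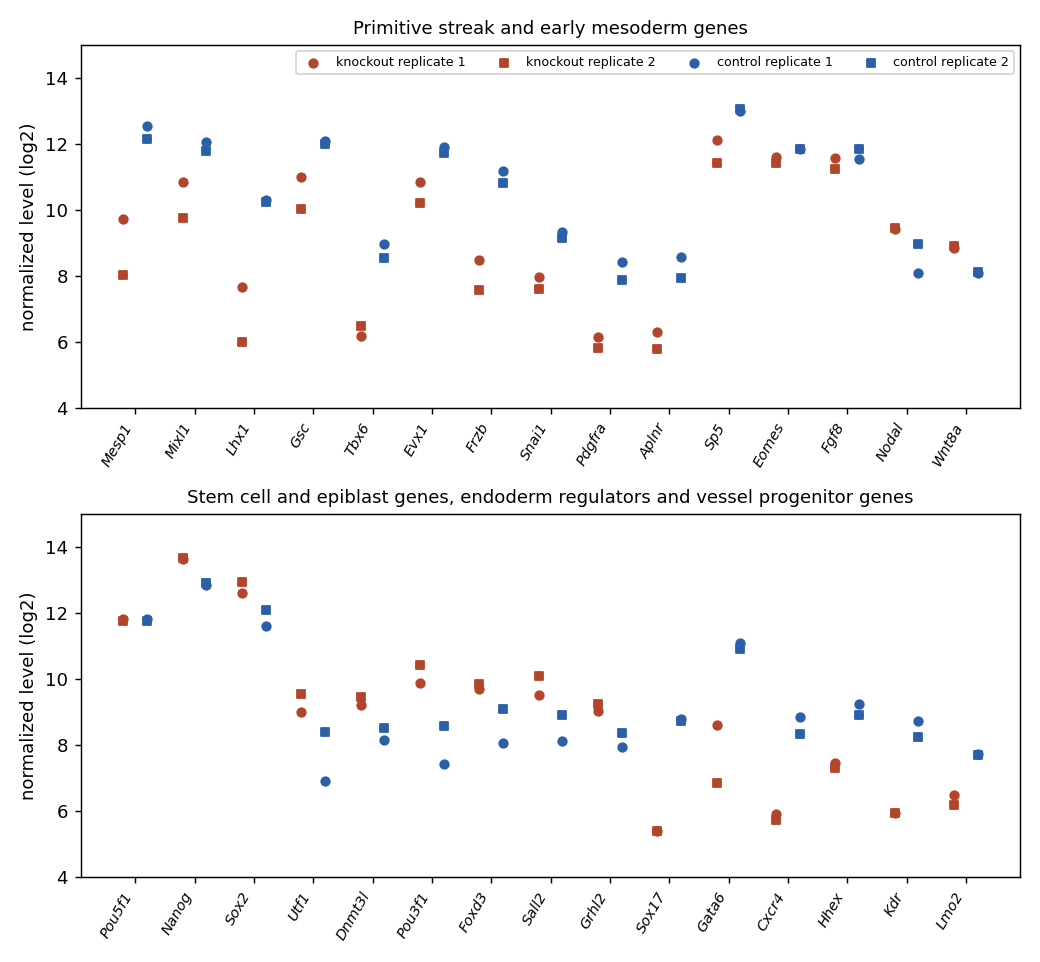
Normalized log2 levels of 30 genes on each day 3 array, knockout arrays left of control arrays, circles for replicate 1 and squares for replicate 2. Mesp1, Lhx1 and Tbx6 are low on both knockout arrays, Eomes and Pou5f1 overlap or nearly overlap between genotypes, and Pou3f1 and Sox2 are high on both knockout arrays.

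Over all genes tested 2.85% fell and 3.94% rose, and of 13 definitive and anterior endoderm genes tested 7 fell and none rose. Sox17 read 5.40 and 5.41 in knockout bodies, where it was not detected, and 8.80 and 8.74 in control bodies, at least 4.02-fold lower (adjusted p = 2.54e-06). Gata6, a zinc finger factor of heart and endoderm, read 8.60 and 6.84 in knockout bodies and 11.09 and 10.91 in control bodies (-3.28 ± 0.37, adjusted p = 4.39e-05). The chemokine receptor Cxcr4, used to mark definitive endoderm, was at least 3.55-fold lower. The median of the 13 was -1.07, and 7 were called lower with each day 3 array left out in turn. With no detection filter the 20 genes on the array, 7 of them lower, had a median of -0.24. Lhx1 and Gsc belonged to both this and the streak list. Foxa2 and Gata4 were below the filter. Genes of primitive and visceral endoderm, the extraembryonic layer, had no call lower: of 19 tested, 2 rose, the homeobox gene Rhox5 (1.31 ± 0.23) and the endocytic adaptor Dab2 (0.72 ± 0.16), at a median of 0.08. The call of Dab2 ended without knockout replicate 2 (adjusted p = 0.134), control replicate 1 (adjusted p = 0.175) or background correction (adjusted p = 0.0738), and with the mean of probes (adjusted p = 0.0858).

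Of 18 blood and vessel progenitor genes tested, 5 fell and none rose, where 2.85% of all genes tested fell. Kdr, the VEGF receptor of these progenitors, read 5.95 and 5.94 in knockout bodies and 8.72 and 8.24 in control bodies, at least 3.28-fold lower (adjusted p = 3.98e-06). The transcriptional regulators Gata2 and Lmo2 were at least 1.78-fold and 1.95-fold lower, and Rasgrp3, an activator of Ras in endothelium, at least 1.21-fold. Etv2, the ETS factor that starts this lineage, read 7.60 and 6.96 in knockout bodies and 8.33 and 8.24 in control bodies (-1.01 ± 0.28, adjusted p = 0.0422), and is named after its values were seen. The median of the 18 was -0.02, and 7 were detected at day 3.

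Few later heart genes were detected. Of 14 tested regulators of cardiac and lateral mesoderm 4 were detected at day 3. Gata6 and Msx1, a homeobox gene responsive to BMP (-1.39 ± 0.22), fell, while Wt1, a regulator of the epicardium and kidney, rose by 1.08 ± 0.30 (adjusted p = 0.0405). The call of Wt1 ended whichever single day 3 array was left out, with adjusted p from 0.0576 to 0.305. None of 10 cardiac sarcomere genes was called by limma, and 3 were detected. With the 4 day 3 arrays alone, 2 of the 10 were called lower. The cardiac actin gene Actc1, named after its values were seen, read 6.40 and 6.46 in knockout bodies and 7.91 and 7.74 in control bodies. Its bound was at least 2.09-fold lower, and its adjusted p of 0.188 missed the threshold.

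Part of the epiblast programme was higher in knockout bodies. Pou3f1, a POU factor of the primed epiblast, read 9.88 and 10.42 in knockout bodies and 7.43 and 8.58 in control bodies, a rise of 2.15 ± 0.27 (adjusted p = 0.000124). Both knockout arrays lay above both control arrays, and control replicate 1 was the lowest. The transcription factors Sall2 and Foxd3 and the epithelial regulator Grhl2 rose by 1.27 ± 0.26, 1.20 ± 0.26 and 0.99 ± 0.19. In contrast, Otx2 (0.02 ± 0.20) and the growth factor gene Fgf5 (0.20 ± 0.15) were not called. Where 3.94% of all genes tested rose, 6 of 14 primed epiblast genes tested rose and none fell. Their median was 0.58, or 0.21 over the 18 on the array with no detection filter. The count rested on single arrays, with 2 rises without knockout replicate 2 and 1 without control replicate 1, against 4 and 6 without the other replicates. Sall2, Foxd3 and Grhl2 then lost their calls, with adjusted p of 0.119, 0.101 and 0.0696 without knockout replicate 2 and of 0.133, 0.150 and 0.0904 without control replicate 1. Sall2 (adjusted p = 0.174) and Foxd3 (adjusted p = 0.141) were also not called without background correction.

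Of the core regulators of pluripotency, Sox2 was called and Pou5f1 and Nanog were not. Pou5f1 (Oct4) read 11.82 and 11.74 in knockout bodies and 11.83 and 11.75 in control bodies (-0.01 ± 0.16, adjusted p = 0.983). Nanog read 13.62 and 13.65 in knockout bodies and 12.83 and 12.89 in control bodies, a difference of 0.77 ± 0.26 that missed the threshold (adjusted p = 0.0985). The 2 genotypes did not overlap for Nanog, and its call appeared with an intensity trend (adjusted p = 0.0275) and with the 4 day 3 arrays alone (adjusted p = 0.0272). The fit of the 4 day 3 arrays alone ended the calls given below for Sox2, Utf1, Gdf3 and Mybl2. Sox2 read 12.60 and 12.94 in knockout bodies and 11.61 and 12.09 in control bodies, a rise of 0.92 ± 0.22 (adjusted p = 0.0191). Utf1, a chromatin protein of stem cells, rose by 1.62 ± 0.36, Gdf3, a ligand of the Nodal receptors, by 0.95 ± 0.23 and the cell cycle factor Mybl2 by 0.93 ± 0.21. Dnmt3l, a cofactor of DNA methylation, rose by 1.00 ± 0.16 (adjusted p = 0.000898). It was the only 1 of the 5 core pluripotency rises still called without knockout replicate 2 or control replicate 1. The others then had adjusted p from 0.103 to 0.207 without knockout replicate 2 and from 0.183 to 0.291 without control replicate 1, and Mybl2 had 0.0555 without knockout replicate 1. Without background correction the calls of Dnmt3l (adjusted p = 0.122), Utf1 (adjusted p = 0.108) and Gdf3 (adjusted p = 0.0791) ended, and likewise with the authors' normalized values (Dnmt3l adjusted p = 0.123). Of 14 genes of this list tested, 5 rose and none fell at a median of 0.33, where 3.94% of all genes tested rose.

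Of 18 naive pluripotency genes tested, 4 rose and 1 fell, at a median of 0.46, against 3.94% and 2.85% of all genes tested. Tcl1, a cofactor of the kinase Akt, rose by 0.97 ± 0.20, the adhesion molecule Jam2 by 0.97 ± 0.24 and the lysosomal enzyme Manba by 0.87 ± 0.22, whereas Tbx3, a T-box gene that also acts in mesoderm and stands in the streak list as well, changed by -1.42 ± 0.31. None of the rises was called without knockout replicate 2 (Jam2 adjusted p = 0.220) or control replicate 1 (Jam2 adjusted p = 0.282), and Tbx3 was not called without knockout replicate 1 (adjusted p = 0.0654), knockout replicate 2 (adjusted p = 0.0628) or control replicate 2 (adjusted p = 0.0850). The other probe of Manba went the opposite way, and with the mean of probes neither Manba (adjusted p = 0.0830) nor Jam2 (adjusted p = 0.102) was called. Without background correction the adjusted p was 0.0558 for Manba and 0.116 for Jam2. The summed level of the 6 stem cell markers was 29895 and 32197 in knockout bodies and 19073 and 21224 in control bodies. Of these 6, 2 were called higher. The sum is of unlogged levels, so that bright genes such as Nanog, which was not called, weigh most.

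Of all genes tested, 2.85% fell and 3.94% rose. Among signalling genes, the falls were most numerous in the BMP pathway, with 6 falls and 1 rise of 17 tested. Its median was -0.30, or -0.16 over the 26 on the array with no detection filter. Without control replicate 1 the list had 4 falls and no rise, and the same counts without knockout replicate 2. Bmper, a secreted modulator of BMP, read 6.45 and 6.15 in knockout bodies and 8.25 and 7.96 in control bodies, at least 2.54-fold lower (adjusted p = 7.11e-06). Chrd, the antagonist chordin, changed by -1.07 ± 0.17. Gata3, a zinc finger factor that BMP induces, was lower by the test (adjusted p = 7.57e-05) but too dim for a fold. Smad1, which carries the signal, changed by -0.89 ± 0.18, and Id1 and Id2, inhibitors of DNA binding, went opposite ways at -0.80 ± 0.20 and 0.81 ± 0.16; these are named after their values were seen. The ligand Bmp4 was not called (-0.19 ± 0.17, adjusted p = 0.632).

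Of 21 Wnt pathway genes tested 3 rose and 4 fell, at a median of -0.06, against 3.94% and 2.85% of all genes tested. Besides Frzb, the receptor gene Fzd1 changed by -1.32 ± 0.26, the ligand gene Wnt5b by -1.12 ± 0.17 and Sp5, a direct Wnt target, by -1.25 ± 0.33 (adjusted p = 0.0348). The calls of Sp5 (adjusted p = 0.322) and Fzd1 (adjusted p = 0.102) ended without knockout replicate 2, and without control replicate 1 (adjusted p = 0.171 for Sp5 and 0.0744 for Fzd1), and that of Sp5 also without control replicate 2 (adjusted p = 0.118) or background correction (adjusted p = 0.122). The list had 1 rise and 2 falls without knockout replicate 2 and again without control replicate 1. Axin2, another Wnt target, was not called (-0.08 ± 0.16). Of 17 FGF pathway genes 1 rose and 2 fell, counts too small to be read as a result beside the shares of all genes. Fgf10, a mesodermal ligand, read 5.97 and 5.86 in knockout bodies and 8.32 and 7.76 in control bodies, at least 2.42-fold lower. The other calls of this list were the ETS factor gene Etv5 (at least 1.52-fold higher) and the membrane protein gene Flrt3 (at least 1.37-fold lower), which were not called without knockout replicate 2 (adjusted p = 0.246 for Etv5), control replicate 1 (adjusted p = 0.181 for Etv5) or control replicate 2 (adjusted p = 0.0555 for Etv5). Nor was Etv5 called without background correction (adjusted p = 0.212), or Flrt3 with the mean of probes, which disagreed in sign (adjusted p = 0.122). Of 15 Nodal pathway genes 3 rose and none fell at a median of 0.05, or -0.07 with no detection filter: Nodal, Gdf3 and the repressor Skil (0.53 ± 0.15, adjusted p = 0.0499). None of the 3 was called without knockout replicate 2 or without control replicate 1, and Skil had adjusted p from 0.0647 to 0.362 whichever day 3 array was left out.

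Notch pathway genes went both ways, with 2 rises and 3 falls of 11 tested and a median of -0.28. With no detection filter the counts were the same over 21 genes, at a median of -0.25. Over all genes tested 3.94% rose and 2.85% fell. The ligand gene Dll3 read 9.66 and 9.34 in knockout bodies and 11.23 and 11.13 in control bodies (-1.68 ± 0.16, adjusted p = 7.18e-06). The receptor gene Notch1 read 6.78 and 6.83 in knockout bodies and 8.27 and 8.30 in control bodies (-1.48 ± 0.16). For both genes the replicates lay closer together than the groups, with no overlap. Dtx1, an E3 ligase acting on Notch, was at least 1.46-fold higher and Mfng, a glycosyltransferase that modifies the receptors, rose by 1.49 ± 0.21.

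Genes of the epithelial to mesenchymal transition included called members of either direction, where 3.94% of all genes tested rose and 2.85% fell. Snai1, the repressor that drives the transition, read 7.98 and 7.60 in knockout bodies and 9.32 and 9.15 in control bodies (-1.45 ± 0.19, adjusted p = 0.000165), with an adjusted p of 0.0577 without background correction. The mesenchymal cadherin Cdh11 changed by -1.85 ± 0.21. Cdh2 (N-cadherin) was at least 1.05-fold lower, and was not called without control replicate 1 (adjusted p = 0.0810). The epithelial cadherin Cdh1 read 12.86 and 13.18 in knockout bodies and 12.32 and 12.49 in control bodies, and was not called (0.61 ± 0.35, adjusted p = 0.378). The list as a whole had 3 rises and 6 falls of 22 tested at a median of -0.11, or 0.04 with no detection filter, with 1 and 4 without knockout replicate 2 and none and 4 without control replicate 1.

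**Figure D3:**
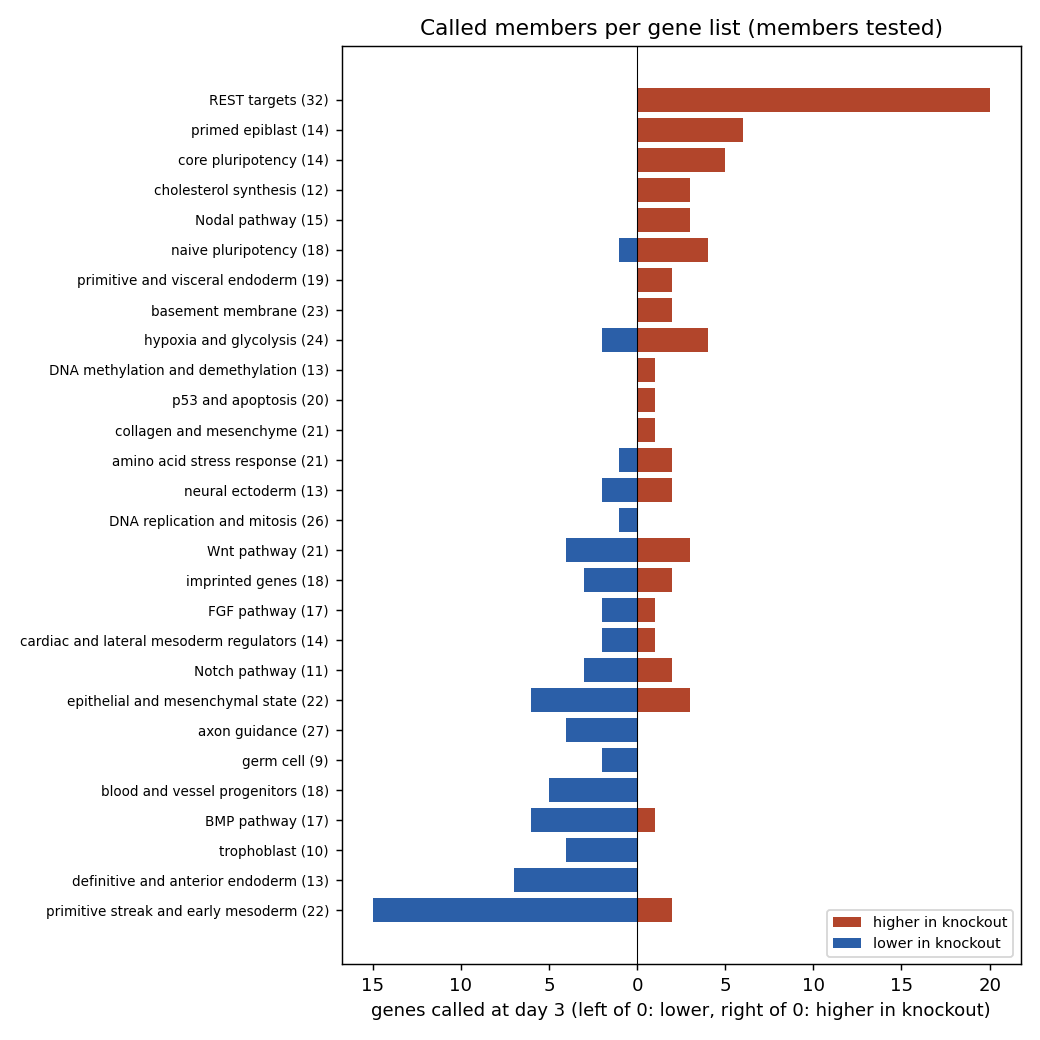
Number of called members of each gene list at day 3, rises in knockout bodies to the right of 0 and falls to the left, with the number of members tested in brackets; lists without a call are not drawn. REST targets have 20 rises and the streak list 15 falls with 2 rises. Over all genes tested 3.94% rose and 2.85% fell. A gene can stand in several lists.

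Guidance molecules of axons, many of which also steer mesoderm cells, had 4 falls and no rise of 27 tested, where 2.85% of all genes tested fell. Their median was -0.18, or -0.09 over the 41 on the array with no detection filter. Sema6d, a semaphorin, read 5.84 and 5.62 in knockout bodies and 8.75 and 8.71 in control bodies, at least 3.91-fold lower (adjusted p = 8.90e-08). Its partner receptor gene Plxna2 was at least 2.73-fold lower, the ligand gene Slit2 at least 1.19-fold, and the ephrin gene Efna1 changed by -1.36 ± 0.20.

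The remaining large falls came from several classes of protein. Lmo1, a LIM-only nuclear adaptor, read 7.21 and 6.83 in knockout bodies and 10.37 and 9.86 in control bodies (-3.09 ± 0.22, adjusted p = 6.06e-07). Asb4, a ubiquitin ligase subunit of vascular progenitors, was at least 4.31-fold lower, the BTB protein Klhl6 at least 3.18-fold, the sulfotransferase Chst7 at least 3.10-fold and the transmembrane collagen Col13a1 at least 1.64-fold. Pcdh7, a protocadherin, changed by -2.22 ± 0.26, with both of its other probes lower as well.

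Neural ectoderm genes had calls in both directions, where 3.94% of all genes tested rose and 2.85% fell. Of 13 tested 2 rose, Neurod1 and the homeobox gene En2 (at least 1.24-fold higher), and 2 fell, Cdh2 and Irx3 (at least 1.01-fold lower). Sox1 was below the filter, and Pax6 was detected in neither genotype at day 3. Without control replicate 1 the calls of En2 (adjusted p = 0.103), Cdh2 and Irx3 (adjusted p = 0.316) ended, and without knockout replicate 2 those of En2 (adjusted p = 0.0806) and Irx3 (adjusted p = 0.269). Both En2 (adjusted p = 0.0826) and Irx3 (adjusted p = 0.0605) also lost their calls without background correction. Trophoblast genes had 4 falls of 10 tested, all of genes that are also used outside trophoblast: the caudal factor Cdx2 (-1.42 ± 0.26), Gata3, the keratin Krt8 (-0.90 ± 0.16) and the growth factor Igf2 (-0.81 ± 0.19). The trophoblast markers Elf5 and Krt7 were not detected. The calls of Cdx2 (adjusted p = 0.0593 without knockout replicate 2 and 0.0723 without background correction) and of Igf2 (adjusted p = 0.163 without knockout replicate 1 and 0.259 without control replicate 1) depended on these choices.

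Of 9 germ cell genes tested 2 fell, the RNA-binding protein gene Dnd1 (-0.97 ± 0.17, with an adjusted p of 0.122 without background correction) and Prdm1, the repressor that starts the germ line (at least 1.22-fold lower). The call of Prdm1 ended whichever single day 3 array was left out, with adjusted p from 0.0814 to 0.0905. Among 18 imprinted genes 2 rose and 3 fell, where 3.94% of all genes tested rose and 2.85% fell. Besides Mest and Igf2, Peg12 was at least 2.29-fold lower, Phlda2, which restrains placental growth, changed by -1.14 ± 0.23 and Ppp1r9a, an actin-binding protein, rose by 1.01 ± 0.20. The calls of Phlda2 (adjusted p = 0.0593 and 0.131) and of Ppp1r9a (adjusted p = 0.110 and 0.0810) ended without knockout replicate 2 and without control replicate 1.

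The metabolic lists each held called genes, where 6.80% of all genes tested were called in either direction. Of 24 hypoxia and glycolysis genes, 4 rose and 2 fell at a median of 0.20. Slc2a1, the glucose transporter GLUT1, read 11.61 and 11.90 in knockout bodies and 10.56 and 10.70 in control bodies (1.12 ± 0.22, adjusted p = 0.00549). Aldoc, an aldolase, was at least 1.54-fold higher, Bnip3, a mitophagy receptor, rose by 1.27 ± 0.25 and Ndrg1, a stress-responsive gene, changed by -0.88 ± 0.22. Aldoc alone of these 4 kept its call without knockout replicate 2, where the adjusted p was 0.0843 for Slc2a1, 0.0640 for Bnip3 and 0.304 for Ndrg1, and without control replicate 1, where it was 0.0699, 0.113 and 0.174. The other probe of Ndrg1 went the opposite way, and the mean of probes was at -0.37 (adjusted p = 0.345). Of 12 cholesterol synthesis genes 3 rose and none fell at a median of 0.42. Msmo1, Lss and Sqle, enzymes of that pathway, rose by 0.77 ± 0.16, 0.55 ± 0.15 and 0.53 ± 0.14, and none was called without knockout replicate 2 (adjusted p = 0.138, 0.222 and 0.184) or control replicate 1 (adjusted p = 0.0656, 0.193 and 0.118). The other detected probe of Sqle went the opposite way, and with the mean of probes Sqle was at 0.18 (adjusted p = 0.656). In the amino acid stress list, with 2 rises and 1 fall of 21, the arginine transporter Slc7a3 rose by 1.22 ± 0.25, asparagine synthetase Asns by 0.51 ± 0.15 (adjusted p = 0.0476), and the lipoprotein receptor Vldlr was at least 1.52-fold lower. The probes of Vldlr disagreed in sign, and with the mean of probes its difference was -0.35 (adjusted p = 0.159), while Asns had an adjusted p of 0.122. Slc7a3 (adjusted p = 0.113) and Asns (adjusted p = 0.251) were not called without knockout replicate 2, nor without control replicate 1 (adjusted p = 0.125 and 0.189).

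Among matrix genes, 13 of the 23 basement membrane genes tested were detected at day 3, where 6.80% of all genes tested were called. The laminin receptor chain Itga6 was at least 1.30-fold higher and Col18a1, a basement membrane collagen, rose by 0.75 ± 0.18, the only 2 calls of the 23. Neither was called without knockout replicate 2 (adjusted p = 0.0565 and 0.142) or control replicate 1 (adjusted p = 0.0833 and 0.281), nor Col18a1 without knockout replicate 1 (adjusted p = 0.0717). Thy1, a surface protein of fibroblasts and of neurons, was at least 1.33-fold higher. It was the only call of 21 collagen and mesenchyme genes tested, of which 3 were detected at day 3. The fibroblast markers Col1a1, Col1a2, Postn, Dcn and Lum were not detected at day 3.

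Few genes of growth and division were called, where 6.80% of all genes tested were called in either direction. At that share lists this short would hold few calls, so that these counts are not read as a result about the genes. Of 26 genes of DNA replication and mitosis, only the cyclin gene Ccnb2 was called (-0.88 ± 0.19), not without knockout replicate 2 (adjusted p = 0.102) or control replicate 2 (adjusted p = 0.0807). Of 20 p53 and apoptosis genes, only Trp53inp1 was called (0.72 ± 0.17), not without knockout replicate 1 (adjusted p = 0.0566), knockout replicate 2 (adjusted p = 0.170) or control replicate 1 (adjusted p = 0.188). None of 14 G1 cyclins and inhibitors, 22 cytosolic ribosomal protein genes, 35 respiratory chain subunits, 8 housekeeping genes, 10 Hox genes or 7 retinoic acid genes was called by limma at day 3. Their medians lay between -0.08 and 0.08, and no Hox gene of the list was detected at this day. Over all 7505 genes, 1443 had an unadjusted p below 0.05.

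The genotype difference at day 3 was then set against that of undifferentiated cells by the test of the difference between the differences. It passed for 200 genes (2.66% of those tested), 96 (1.28%) with a higher and 104 (1.39%) with a lower value at day 3. Where a group was not detected, these are fitted values that depend on the background. Among genes also called at day 3, Gata6, Mesp1 and Lmo1 had the most negative values, -3.64, -3.53 and -3.47, and Celf3, Itga3 (a laminin receptor chain) and Pou3f1 the most positive, 2.36, 2.23 and 1.95. Mesp1 was detected in neither genotype at day 0, with means of 5.53 in knockout cells and 5.48 in control cells. Celf3 was likewise undetected at day 0 in both genotypes, so that its rise appeared at day 3. The streak list had 11 negative and 1 positive call of 22 in this test, and the endoderm list 7 negative calls of 13. The count fell to 83 without knockout day 3 replicate 2 and 68 without control day 3 replicate 1, and was 101 and 89 without the knockout day 0 replicates 1 and 2.

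Against the mean of the day 6 and day 9 differences, 351 genes differed (4.68%), 166 (2.21%) with a higher and 185 (2.47%) with a lower value at day 3. Among genes also called at day 3, the most negative values were those of Lhx1 (-4.11), Sox17 (-3.99) and Mesp1 (-3.58), and the most positive those of Mal2, a protein of apical transport (2.12), Pou3f1 (1.93) and the ubiquitin ligase Trim2 (1.88). Of the 22 streak genes 14 were lower and 1 higher at day 3 in this test. Among the 32 REST targets 16 were lower at day 3 than later and 1 was higher, for example Disp2 (-2.67, adjusted p = 1.92e-07) and Celf3 (-1.68, adjusted p = 0.000108). The count was 174 without knockout day 3 replicate 2 and 174 without control day 3 replicate 1.

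Some of the day 3 calls recurred on other days, more of the rises than of the falls by count. Of the 296 rises at day 3, 52 were also called higher at day 0, 17.6% of the day 3 rises and 49.1% of the 106 rises at day 0 (1.41% of genes). At day 6, 59 were called higher (19.9% of the day 3 rises and 55.1% of the 107 at day 6, 1.43% of genes), and at day 9, 76 (25.7% and 37.6% of 202, 2.69% of genes). Of the 214 falls, 12 were also called lower at day 0 (5.61% of the day 3 falls and 20.7% of 58, 0.773% of genes), 2 at day 6 (0.935% and 8.33% of 24, 0.320% of genes) and 19 at day 9 (8.88% and 10.4% of 182, 2.43% of genes). Over all genes, 2.19% were called in either direction at day 0, 1.75% at day 6 and 5.12% at day 9. In all, 35 rises and none of the falls were called in the same direction on all 4 days. Called in their day 3 direction on no other day were 206 rises and 186 falls. Genes called the opposite way on another day, such as the rise Grhl2, are kept in these counts. At day 9, 14 of the day 3 rises were called lower and 5 of the day 3 falls higher. Grhl2 was such a rise, with -1.30 at day 9 (adjusted p = 0.000498), and Gsc, named after its values were seen, such a fall, with 1.39 at day 9 (adjusted p = 0.00326).

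**Figure D4:**
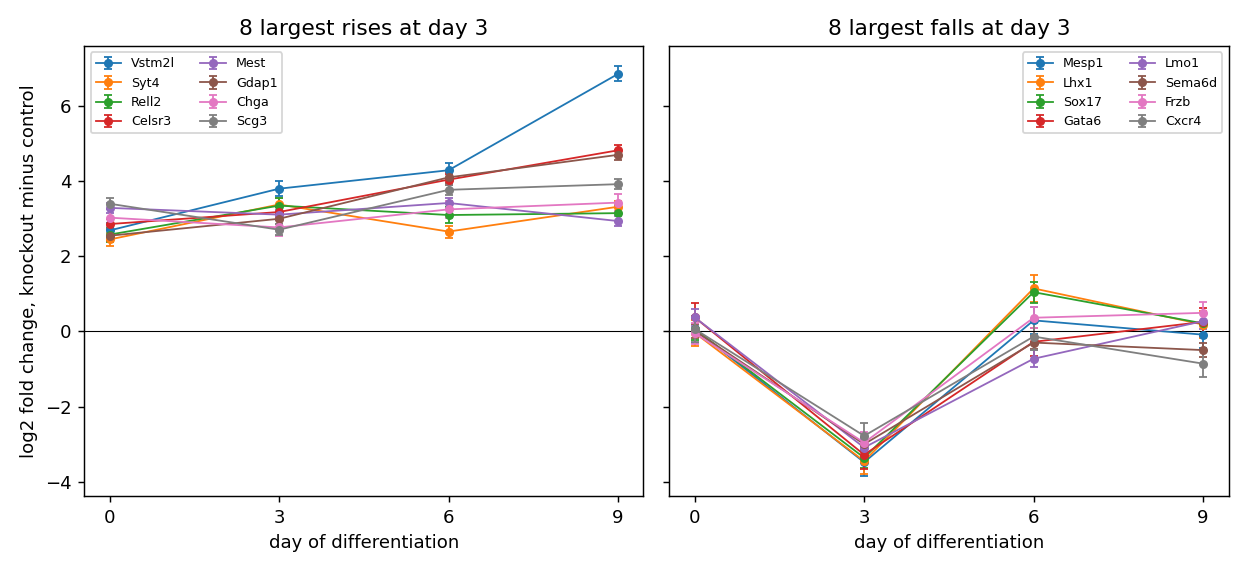
Log2 fold change, knockout minus control, with standard error, against the day of differentiation for the 8 largest rises (left) and 8 largest falls (right) at day 3, chosen by their day 3 values. The rises lie at 2.44 or above on every day, and the falls lie at -2.78 or below at day 3 and between -0.86 and 1.14 on the other days.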

How the data were processed

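Total RNA of 16 samples was hybridised as biotinylated cRNA to Illumina mouse bead arrays, per the labels, 2 arrays for each of 8 groups. Per the file headers, the deposited table holds for 25697 probes intensities with no normalization across arrays, each with its detection p-value. Background had been subtracted from the deposited intensities, of which 25.5% to 28.0% per array were below 0. The authors' normalized intensity table served as an alternative. The scanner software was not stated.

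Intensities were processed in R 4.3.3 with limma 3.58.1 and statmod 1.5.0 by its neqc steps: normexp from detection p-values, an offset of 16, quantile normalization and log2. Probes with a detection p below 0.01 on both arrays of at least 1 group were kept (10241, of which 614 had no gene symbol), and the brightest probe stood for each of 7505 genes. The probe annotation named the genes (23978 probes with 1 symbol, 0 with several, 1719 with none). A linear model with a mean for each group, over all 16 arrays, used lmFit and eBayes and had 8 residual and 6.40 prior degrees of freedom. Knockout minus control at day 3 and its difference from day 0 and from the mean of days 6 and 9 were tested, with Benjamini-Hochberg adjustment over 7505 genes per comparison and a threshold of 0.05. Every adjusted p is from this limma test, except where an alternative is named, when it is from limma with that alternative. For a gene not detected in a group, the fold is a bound: the brighter group's mean over the dimmer group's floor, on each array the larger of the probe's own value and the lowest detected signal. The number of arrays limits the precision.

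The text names the 15 largest rises and falls (symbols of unnamed gene models left out), up to 4 called genes for each of 36 lists, a set of stage genes whether called or not, and the 3 largest in each direction of the 2 differences between days. The members and lists were chosen with earlier results of these data known. Lists share members, such as Msx1, Gata3 and Chrd, so that counts of different lists are not separate results. Scripts were tested on simulated data. Alternatives covered normexp, offset, normalization, filter, probe choice, variance model, array weights, replicate block, the samples in the fit and each array left out. Leaving out normexp is what the text calls without background correction, although the deposited intensities were already background-subtracted.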

Additional observations from a re-analysis of the deposited data

Results flagged for a closer look

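The genotype difference at day 3 differed from that on other days for many of the genes named above, by the test of the difference itself (limma, adjusted p below 0.05). Many were named for their large day 3 difference, which is part of this test, so that the choice of genes favours such results. Mesp1, Tbx6 and Chst7 were detected in neither genotype at days 0, 6 and 9, and their values restate the day 3 fall. Values are log2, the day 3 difference minus the other, and are fitted values that depend on the background where a group was not detected.

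Streak, endoderm and vessel genes were more negative at day 3. The values against day 0 and against the mean of days 6 and 9 were -3.53 and -3.58 for Mesp1, -3.41 and -4.11 for Lhx1, -2.91 and -3.39 for Frzb, and -2.69 and -2.44 for Tbx6. They were -3.43 and -3.99 for Sox17, -3.64 and -3.26 for Gata6, -2.84 and -2.28 for Cxcr4, and -2.46 and -2.35 for Kdr. Other large falls gave -3.47 and -2.86 for Lmo1, -3.00 and -2.60 for Sema6d, -3.02 and -2.83 for Asb4, -2.58 and -2.59 for Klhl6, -2.27 and -2.54 for Chst7, -2.17 and -1.65 for Col13a1, and -2.12 and -2.05 for Pcdh7.

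Pou3f1 was more positive at day 3, with 1.95 and 1.93, as were Itga3 with 2.23 and 1.66 and Mal2 with 1.65 and 2.12. Trim2 gave 1.88 against the later days alone. Among neuronal genes, Celf3 was more positive at day 3 than at day 0 (2.36) and less than later (-1.68), likewise Vstm2l with 1.11 and -1.76. Gprin1 (1.25) and Syt4 (0.93) differed from day 0, and Celsr3 (-1.25), Disp2 (-2.67), Gdap1 (-1.40) and Scg3 (-1.13) from the later days.

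Among the 614 detected probes without a gene symbol, which enter no comparison above, 36 were called at day 3, 15 higher and 21 lower in knockout bodies. This was 5.86%, against 6.09% of all 10241 detected probes.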

How the results depend on the processing

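Leaving out single day 3 arrays gave between 207 and 450 called genes at day 3, against 510, and the 4 day 3 arrays fitted alone gave 294. Array weights gave 675. The other alternatives gave 409 to 583. Higher genes made up 65.2% of the calls with median scaling, against 58.0%. For the day 3 difference minus the day 0 difference, leaving out 1 array gave 68 to 239 genes, against 200. Without background correction it was 122 and the authors' normalized values gave 122. Median scaling gave 33.3% higher, against 48.0%. For the day 3 difference minus that of the later days, leaving out 1 array gave 174 to 419 genes, against 351. Without background correction it was 224 and the authors' values gave 217. The cause was not tested. Of the 99 named called genes, 60 kept their call without knockout replicate 2 and 61 without control replicate 1. Without background correction 75 did, and with the 4 day 3 arrays alone 69 did. None reversed in the alternatives run. Deviations of same-numbered day 3 arrays from their group means had a correlation of 0.064 over all 7505 genes. Among the called genes, however, replicate 1 was above replicate 2 for most falls and below it for most rises, in both genotypes. Whether same-numbered arrays shared more than a number was not stated, and the correlation over all genes cannot decide it. With the replicate block 498, 184 and 318 genes were called. A slide block was not run, since the tables name no slides. Genes dim in 1 group have only bounds.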
